A study of Mus musculus with 36 samples.

Results

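The chromatin remodellers of the BAF, CHD and NuRD families were followed by RNA-seq in mouse embryonic stem cells (ESCs) and in neural stem cells (NSCs) made from them. A list of 40 genes was taken by symbol from the deposited tables, out of 19426 genes listed in either table. Of these, 38 were listed in the ESC table and 40 in the NSC table, since Actl6b and Dpf3 were listed for NSCs alone. Every listed member passed the filter of a mean of at least 10, as did 17033 of 17036 genes in ESCs and 17744 of 17771 in NSCs. In each table the lowest total of a listed gene over its 5 libraries was 51 recovered reads. Actl6b and Dpf3 have no ESC value, and their difference between the cell types was not tested. All cells were male, of the V6.5 line with a mixed 129/C57BL/6 background, and were either wildtype (WT) for the TET genes or triple knockouts (TKO) lacking the 3 TET dioxygenases. There were 3 WT and 2 TKO libraries per cell type, each from a line or culture with its own code. The codes of the 2 TKO lines recurred in both cell types, so that a TKO group is 2 clonal lines and its p-values measure the spread among these few cultures. The 3 WT codes recurred too, and whether they name lines or only replicates cannot be read from them. The main fits use no pairing of libraries between the cell types. ESCs were freed of feeder cells by preplating for 45 minutes and held on gelatin with serum and LIF for 24 hours, while NSCs were taken on day 6, after 1 passage. Promoter capture Hi-C (pcHiC), which lists contacts of promoter fragments, came from 1 WT and 1 TKO NSC library.

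BAF complexes slide and evict nucleosomes with 1 of 2 alternative ATPases, BRG1 (Smarca4) or BRM (Smarca2), held by a core of SMARCC, SMARCD, SMARCB1 and SMARCE1 proteins. Many of their positions can be filled by either of several paralogues. An ESC form of the complex is known that is rich in Smarcc1, Smarcd1, Actl6a and Arid1a, and during neural development subunits such as Actl6a, Ss18 and Phf10 give way to Actl6b, Ss18l1 and Dpf1 or Dpf3 as progenitors become neurons. NuRD joins a CHD ATPase (Chd3, Chd4 or Chd5) to histone deacetylases (Hdac1, Hdac2) through MTA and GATAD2 scaffolds. The TET enzymes oxidise methylated cytosine, mostly at CG sites.

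Smarca2 and Smarcc2 both rose from ESCs to NSCs while Smarca4 did not pass the test and Smarcc1 fell, so the promoters of both pairs are shown. The 4 sequences have each CG in capitals. They run from 250 bases before to 50 after an annotated start, were taken from RefSeq on GRCm38.p6 and all lie on the plus strand. Smarca4 is at chr9:21615919-21616218, Smarca2 at chr19:26604910-26605209, Smarcc1 at chr9:110131774-110132073 and Smarcc2 at chr10:128458986-128459285.
Smarca4: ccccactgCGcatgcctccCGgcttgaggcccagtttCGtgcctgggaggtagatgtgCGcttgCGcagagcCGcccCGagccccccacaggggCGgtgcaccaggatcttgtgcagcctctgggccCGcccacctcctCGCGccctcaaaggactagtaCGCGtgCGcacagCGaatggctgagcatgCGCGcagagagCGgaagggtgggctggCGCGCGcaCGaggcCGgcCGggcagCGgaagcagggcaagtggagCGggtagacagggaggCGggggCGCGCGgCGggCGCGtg
Smarca2: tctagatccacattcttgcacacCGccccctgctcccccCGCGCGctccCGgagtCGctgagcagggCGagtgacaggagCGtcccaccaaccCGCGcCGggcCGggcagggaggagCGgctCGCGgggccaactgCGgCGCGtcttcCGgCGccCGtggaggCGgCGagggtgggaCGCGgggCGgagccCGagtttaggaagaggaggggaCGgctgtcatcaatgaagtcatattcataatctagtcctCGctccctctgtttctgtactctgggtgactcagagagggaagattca
Smarcc1: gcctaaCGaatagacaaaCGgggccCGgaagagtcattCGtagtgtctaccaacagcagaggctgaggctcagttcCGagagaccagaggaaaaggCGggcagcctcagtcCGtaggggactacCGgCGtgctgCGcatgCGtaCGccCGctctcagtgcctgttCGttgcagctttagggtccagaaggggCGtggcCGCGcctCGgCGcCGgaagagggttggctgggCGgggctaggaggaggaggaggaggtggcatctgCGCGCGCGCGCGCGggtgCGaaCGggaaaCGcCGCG
Smarcc2: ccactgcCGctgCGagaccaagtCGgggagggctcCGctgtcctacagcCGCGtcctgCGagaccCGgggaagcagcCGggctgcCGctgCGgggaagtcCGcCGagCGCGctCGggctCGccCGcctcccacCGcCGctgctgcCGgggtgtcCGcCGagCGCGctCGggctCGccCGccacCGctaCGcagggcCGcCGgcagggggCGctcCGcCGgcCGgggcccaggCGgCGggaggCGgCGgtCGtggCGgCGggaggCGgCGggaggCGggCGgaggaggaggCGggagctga

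The search was for the letters CG, which read alike on both strands and cannot overlap themselves. The Smarca4 window held 33 CG, that of Smarca2 29, that of Smarcc1 33 and that of Smarcc2 48. Of the 32851 promoter windows in the table, 94.6% held at least 1 CG, and windows with as many as these made up 8.56%, 12.9%, 8.56% and 1.22%. Promoters were matched for 30 of the 40 members, with 37 windows in all, and held between 1 and 62 CG with a median of 30, against a median of 7 over the whole table. The windows of Smarcd2, with 4 CG, and of 1 of 2 Chd9 starts, with 1, held the fewest. The Smarcd2 window, on the minus strand at chr11:106267583-106267882, lies inside the gene's span of chr11:106263171-106272998. It belongs to an inner start, and no window at the outer start of Smarcd2 was matched. Methylation at these promoters was not analysed here.

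Library totals lay between 41.0 M and 49.1 M recovered reads, and the lowest levels on the list, of Dpf3, Actl6b and Smarca2 in ESCs, rest on few of them. As a check of the labels, Tet1 ran from 9634 to 12237 normalized reads in the WT ESCs and stood at 4635 and 4966 in the TKO ESCs, and Tet3 in NSCs ran from 4050 to 4208 in WT and stood at 2379 and 2597 in TKO. Tet2 in NSCs did not separate the genotypes (1066 to 1295 in WT, 1146 and 1555 in TKO), and the deleted part of each gene is not stated in the labels. ESC markers were summed over 8 genes (Pou5f1, Nanog and others) and 8 of 8 fell from ESCs to NSCs in both genotypes. Of 8 NSC and radial glia markers (Nes, Pax6, Slc1a3 and others), 8 were higher in NSCs in WT and 6 in TKO. In TKO, Pax6 did not differ by the test (0.02 ± 0.37 in log2) and Slc1a3 was lower in NSCs (-0.83 ± 0.13). Between the genotypes the NSC cultures differed in marker RNA. The summed radial glia markers ran from 347285 to 360925 in WT and from 175888 to 182681 in TKO, with 7 of 8 lower. Most of each sum was Vim, at 243839 to 269141 in WT and 141135 and 140092 in TKO. Pax6 had the largest log2 difference of the 8, with 2575 to 2840 in WT and 234 and 78.1 in TKO. The 7 fibroblast and feeder-like markers summed to between 46846 and 59341 in WT and between 120911 and 142118 in TKO. Of these 7, 6 were higher and 1, Col1a1, lower. ESC markers in NSCs summed to between 1376 and 1603 in WT and between 2982 and 5553 in TKO, with 4 of 8 higher, and 6 endoderm and mesoderm markers to between 1630 and 2064 in WT and between 4644 and 4722 in TKO, with 2 higher (T and Gata6). Sums of neuron, astrocyte and oligodendrocyte-lineage markers were lower in both TKO NSC libraries than in every WT library. By the test 4 of 10 neuron markers were lower and 1 higher, 2 of 4 astrocyte markers were lower, and of 4 oligodendrocyte-lineage markers 1, Olig1, was lower. The part of these shifts in the member values below was not tested, and in bulk RNA fewer cells of a type and less RNA per cell cannot be told apart.

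The first comparison asked which subunits distinguish NSCs from ESCs, and whether this held in both genotypes. Values are reads scaled jointly over all 10 libraries by the median of ratios, since the deposited tables had been normalized apart. In WT, 29 of 38 members differed between the cell types, 11 higher and 18 lower in NSCs (limma trend, Benjamini-Hochberg adjusted p under 0.05 over all genes). Over all genes 75.3% were called, 37.8% higher and 37.5% lower, so a call by itself says little about the members. Their median log2 difference was -0.24, beside -0.0017 over all genes. In TKO, 31 of 38 were called, 11 higher and 20 lower, beside 70.2% of all genes (35.4% higher and 34.8% lower), with a median of -0.35. Called in both genotypes were 28 members, which is 96.6% of the WT calls and 90.3% of the TKO calls. All 28 had the same direction, 11 higher and 17 lower. This overlap was not computed over all genes, so it cannot be read as a trait of the members. Scaling to equal totals moved the median of all genes by 0.33 in WT and 0.39 in TKO and turned the split of member calls to 17 higher and 14 lower in WT, and 18 higher and 12 lower in TKO. Differences within about that size therefore depend on the scaling, and over all genes the split went from 5815 higher and 5769 lower to 7208 and 4544 in WT, and from 5439 and 5359 to 7069 and 3859 in TKO.

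**Figure D1:**
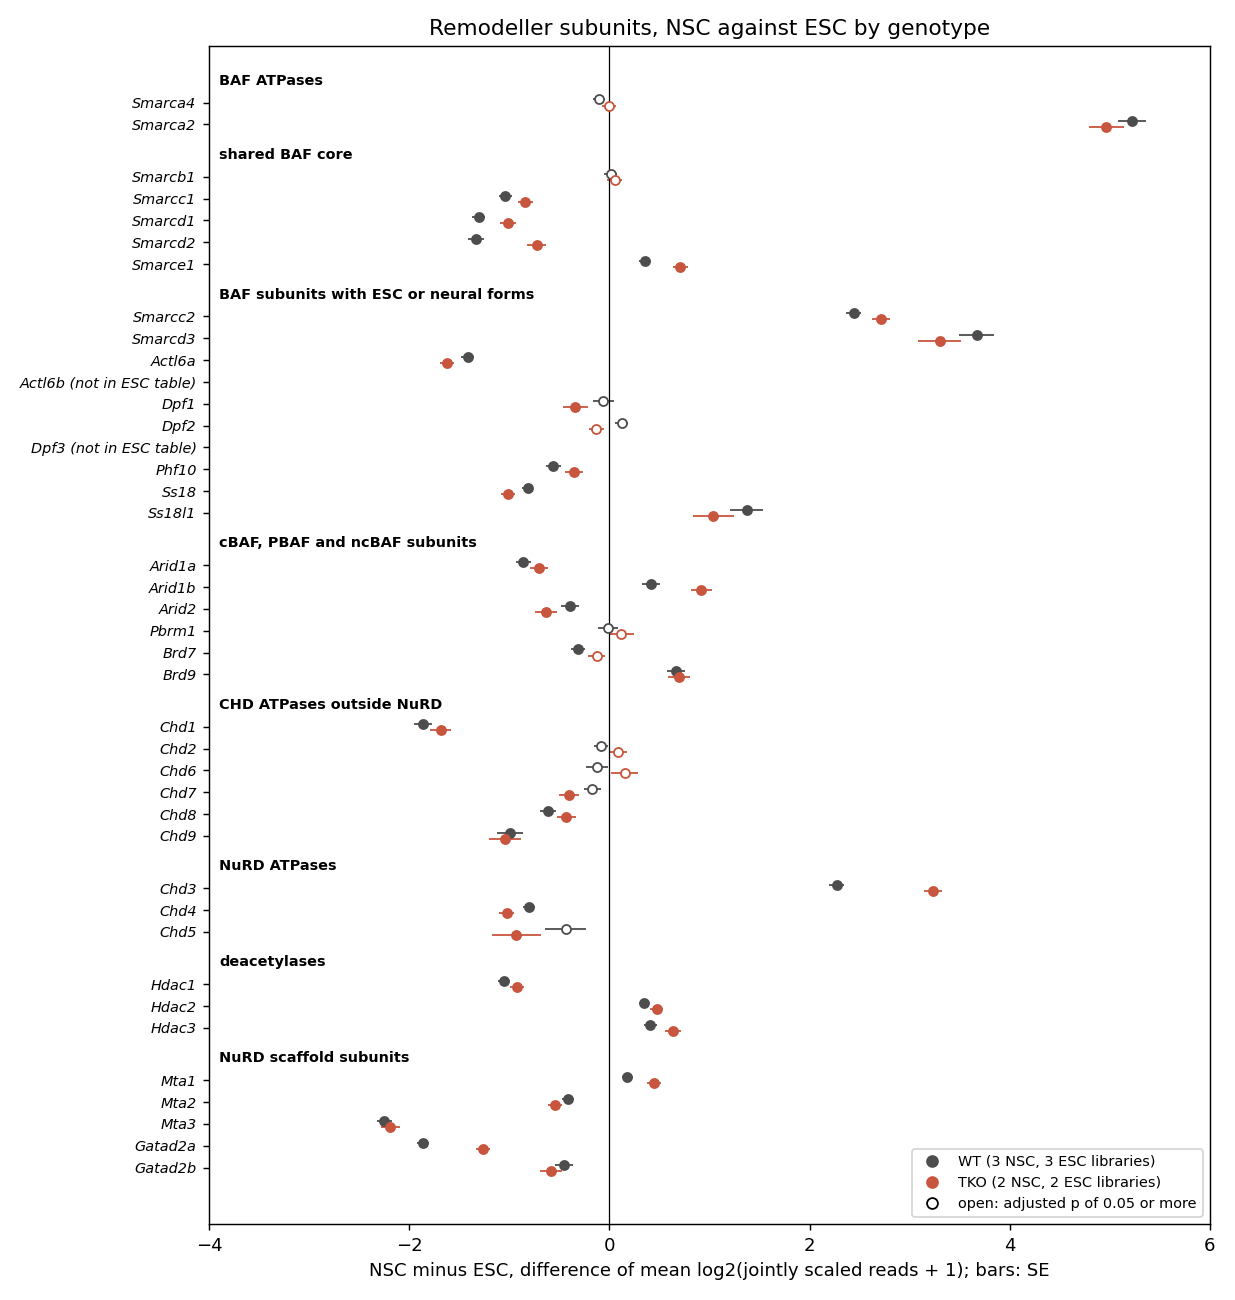
Difference of mean log2(jointly scaled reads + 1) between NSCs and ESCs for each member, by role, with WT in grey (3 against 3 libraries), TKO in red (2 against 2) and bars of 1 SE; open points did not pass the threshold. Smarca2, Smarcd3, Smarcc2 and Chd3 stand far to the right in both genotypes, and Mta3, Gatad2a, Chd1 and Actl6a to the left.

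Of the BAF ATPases, Smarca2 carried the largest cell type difference of any member and Smarca4 did not pass the test. Smarca2 (BRM, chr19:26605073-26778321) had 123, 121 and 95.8 jointly scaled reads in the 3 WT ESC libraries and 100 and 107 in TKO ESCs. In NSCs it had 4308, 4039 and 4369 in WT and 3782 and 2824 in TKO. No ESC library came near an NSC library. The log2 difference was 5.22 ± 0.14 (SE) in WT and 4.97 ± 0.18 in TKO (limma, adjusted p = 3.76e-13 and 1.16e-11). Smarca4 (BRG1, the ATPase that ESCs depend on, chr9:21616106-21704230) had 18301 to 19671 reads in WT ESCs, 17531 and 18545 in TKO ESCs, 16768 to 18276 in WT NSCs and 18258 and 17594 in TKO NSCs. The WT ESC libraries all lay above the WT NSC libraries, by a narrow margin, and the TKO ranges overlap. The log2 differences were -0.10 ± 0.06 in WT and -0.01 ± 0.07 in TKO (limma, adjusted p = 0.111 and 0.920), turning to 0.22 and 0.39 with calls when libraries were scaled to equal totals. Within a library, where no scaling enters, the reads of Smarca2 per read of Smarca4 were 0.00515 to 0.00659 in WT ESCs and 0.236 to 0.248 in WT NSCs, and in TKO 0.00573 and 0.00575 in ESCs against 0.207 and 0.160 in NSCs. The ratio of group means rose 40.3-fold in WT and 32.0-fold in TKO. Such ratios carry the unequal lengths of the transcripts and are read only between libraries.

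The shared core fell, with 1 exception among the 4 called. Smarcb1 (SNF5, chr10:75896769-75921614) did not differ by the test, with 7382 to 7795 reads in WT ESCs and 7160 to 8139 in WT NSCs (0.01 ± 0.06 in log2; limma, adjusted p = 0.872). Under equal totals Smarcb1 was called higher in NSCs in both genotypes. Smarcc1 (BAF155, chr9:110132024-110240178) had 20366, 19893 and 20225 reads in WT ESCs and 9970, 9413 and 10049 in WT NSCs, with no overlap. It fell by 1.04 ± 0.06 in WT and by 0.84 ± 0.07 in TKO on the log2 scale. Smarcd1 (BAF60A, chr15:99702287-99713995) had 13934, 13261 and 12952 reads in WT ESCs and 5587, 5161 and 5486 in WT NSCs, a log2 fall of 1.31 ± 0.06, and in TKO it went from 11528 and 10596 to 5231 and 5732. Smarcd2 (BAF60B) fell too, by 1.34 ± 0.08 in WT but by 0.73 ± 0.10 in TKO. Smarce1 (BAF57), the DNA-binding HMG subunit, was the exception and rose by 0.35 ± 0.06 in WT and 0.71 ± 0.07 in TKO. Both were among the members whose genotype effect differed between cell types and are described with those.

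Among subunits with an ESC or a neural form, the SMARCC and SMARCD partners of those core subunits went the other way. Smarcc2 (BAF170, chr10:128459182-128490591), the scaffold paralogue of Smarcc1, had 1760, 1589 and 1693 reads in WT ESCs and 9278, 8931 and 9199 in WT NSCs. In TKO it had 1162 and 1378 reads in ESCs and 8272 and 8298 in NSCs. The groups lie far apart, and the log2 difference was 2.44 ± 0.07 in WT and 2.71 ± 0.09 in TKO (limma, adjusted p = 8.73e-13 and 6.78e-12). Smarcd3 (BAF60C, chr5:24592622-24624456), best known from heart and muscle, had 169, 139 and 238 reads in WT ESCs and 2219, 2206 and 2395 in WT NSCs, and in TKO 159 and 200 against 1735 and 1799. Its log2 difference was 3.67 ± 0.18 in WT and 3.30 ± 0.21 in TKO (limma, adjusted p = 8.24e-11 and 4.21e-09). The Smarcd3 span overlaps that of Chpf2, and the labels do not state whether counting used the strand. Per read of Smarcc1, Smarcc2 had 0.0799 to 0.0864 reads in WT ESCs and 0.915 to 0.949 in WT NSCs, an 11.2-fold rise of the mean ratio, and an 11.7-fold rise in TKO. Per read of Smarcd1, Smarcd3 rose 30.7-fold in WT and 19.7-fold in TKO, whereas Smarcd2 per Smarcd1 stayed at 0.317 to 0.389 in WT ESCs and 0.317 to 0.357 in WT NSCs, which overlap.

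The subunits of the later switch at the progenitor to neuron step gave a mixed picture. Actl6a (BAF53A, chr3:32708546-32726973), the actin-like subunit of dividing progenitors, had 10061, 10650 and 10806 reads in WT ESCs and 3899, 3787 and 4107 in WT NSCs, a fall of 1.42 ± 0.06 in WT and of 1.62 ± 0.07 in TKO on the log2 scale (limma, adjusted p = 2.57e-11 and 1.24e-10). Its neuronal counterpart Actl6b (BAF53B), listed only in the NSC table, had 124, 188 and 262 normalized reads in WT NSCs and 134 and 197 in TKO NSCs, or 0.0272 to 0.0544 reads per read of Actl6a in WT. The low Actl6b values thus differed more than 2-fold between WT libraries. Ss18 fell by 0.82 ± 0.06 in WT and 1.02 ± 0.07 in TKO on the log2 scale, and its neuronal counterpart Ss18l1 (CREST) had 216, 274 and 259 reads in WT ESCs and 584, 640 and 714 in WT NSCs. The rise of Ss18l1 was 1.37 ± 0.17 in WT and 1.04 ± 0.20 in TKO (limma, adjusted p = 2.72e-06 and 3.57e-04), and per read of Ss18 it rose 4.56-fold and 4.13-fold.

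Phf10 (BAF45A), the progenitor form among the double-PHD-finger proteins, had 4786 to 5312 reads in WT ESCs and 3208 to 3569 in WT NSCs, a fall of 0.56 ± 0.07 in WT and of 0.35 ± 0.09 in TKO on the log2 scale. Under equal totals the fall kept its call in WT, while in TKO the difference became 0.04 with no call. Dpf1 (BAF45B), a form of neurons, had 989 to 1115 reads in WT ESCs and 933 to 1112 in WT NSCs. The 2 groups overlap (-0.06 ± 0.10; limma, adjusted p = 0.598). In TKO, Dpf1 was lower in NSCs by the test (-0.34 ± 0.12; limma, adjusted p = 0.0248), which no longer passed with local centring (described below), without TKO ESC replicate 2 or without TKO NSC replicate 1, and turned to 0.05 under equal totals. Dpf2 (BAF45D), which is widely expressed, did not pass in either genotype (0.12 ± 0.06 and -0.13 ± 0.08). Under equal totals Dpf2 was called higher in NSCs in both genotypes, and Dpf1 in WT. Dpf3 (BAF45C), also known from heart muscle, had 16.5 to 43.9 normalized reads over the 5 NSC libraries, the lowest level on the list.

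**Figure D2:**
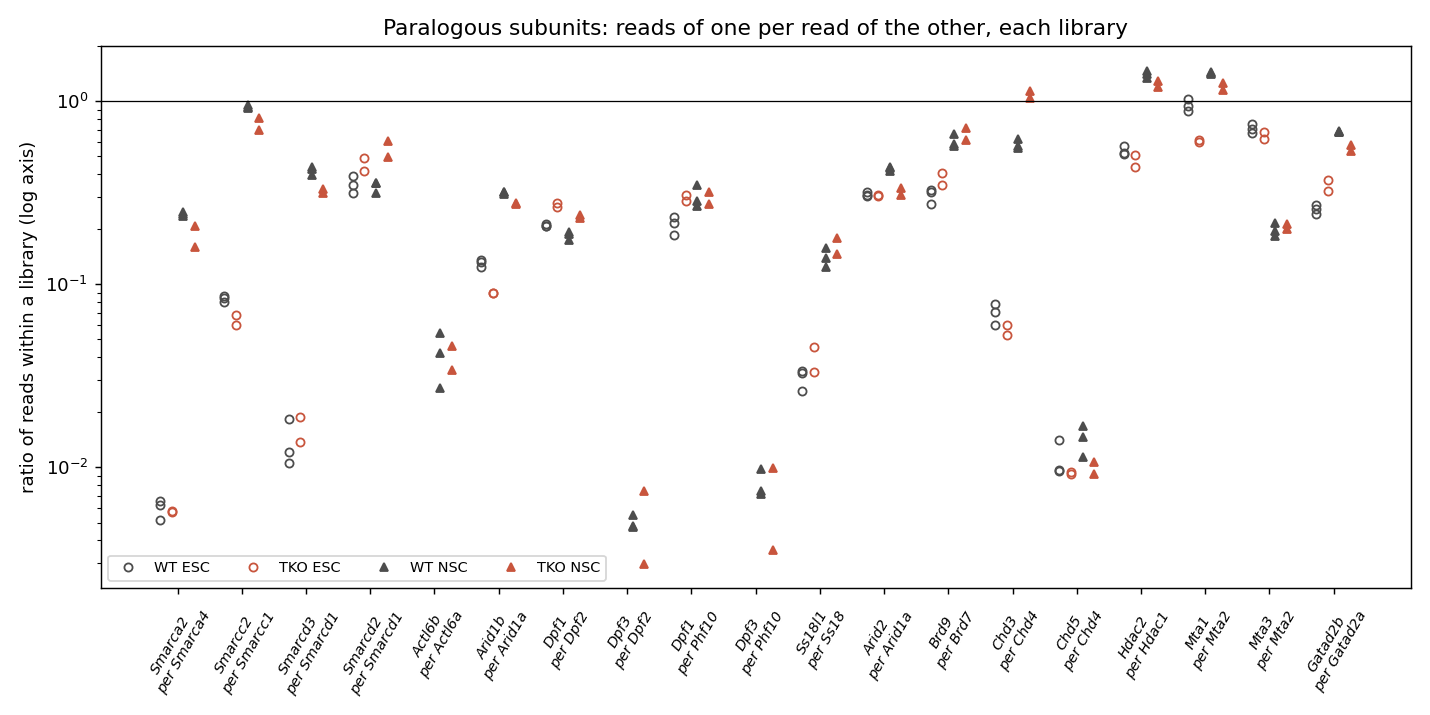
Reads of a subunit per read of its paralogue in each library, on a log axis, with open circles for ESCs, filled triangles for NSCs, grey for WT and red for TKO; Actl6b and Dpf3 have NSC values only. Smarca2 per Smarca4 and Smarcd3 per Smarcd1 rose most from ESCs to NSCs among these ratios in both genotypes, and the TKO NSCs alone exceed 1 for Chd3 per Chd4.

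Of 16 such ratios that could be formed in both cell types, 11 did not overlap between the 5 ESC and the 5 NSC libraries, 10 of them higher in NSCs and 1, Mta3 per Mta2, lower. These ratios are descriptions without a test of their own, and over all genes the jointly scaled reads of 61.8% did not overlap between those libraries. The overlapping ones were Smarcd2 per Smarcd1, Dpf1 per Dpf2, Dpf1 per Phf10, Arid2 per Arid1a and Chd5 per Chd4.

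The 2 alternative ARID1 subunits moved in opposite directions in both genotypes. Arid1a (BAF250A) of canonical BAF, at chr4:133679008-133756769, had 17434, 14837 and 14089 reads in WT ESCs and 8266, 8370 and 8796 in WT NSCs, and fell by 0.86 ± 0.07 in WT and 0.70 ± 0.09 in TKO on the log2 scale. Its alternative Arid1b (BAF250B), at chr17:4994297-5347656, had 2300, 1855 and 1916 reads in WT ESCs and 2634, 2661 and 2750 in WT NSCs, and rose by 0.41 ± 0.09 in WT and 0.92 ± 0.11 in TKO (limma, adjusted p = 6.36e-04 and 2.47e-06). Arid1b per Arid1a rose 2.42-fold in WT and 3.07-fold in TKO. Arid2 (BAF200), which defines PBAF, fell by 0.40 ± 0.09 and 0.63 ± 0.11, and this lost its call in both genotypes under equal totals. Pbrm1 (BAF180), the other PBAF subunit, was called in neither genotype (-0.02 ± 0.10 and 0.12 ± 0.12). Brd7, of PBAF, fell by 0.32 ± 0.07 in WT, with 0.01 and no call under equal totals, and was not called in TKO (-0.13 ± 0.08; limma, adjusted p = 0.185). Under equal totals Pbrm1 was called higher in NSCs in both genotypes, and Brd7 in TKO. Brd9, of the non-canonical BAF complex, had 1546 to 1680 reads in WT ESCs and 2336 to 2771 in WT NSCs, and rose by 0.66 ± 0.09 in WT and 0.70 ± 0.11 in TKO. Per read of Brd7, Brd9 rose 1.97-fold in WT and 1.77-fold in TKO.

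No CHD ATPase outside NuRD was higher in NSCs by the test with the median-of-ratios scaling. Chd1, a remodeller of transcribed genes that ESCs need for open chromatin, at chr17:15704967-15772612, had 10173, 8377 and 7904 reads in WT ESCs and 2294, 2426 and 2522 in WT NSCs. In TKO it went from 9137 and 10397 to 2997 and 3052. The NSC and ESC libraries lie far apart, and Chd1 fell by 1.86 ± 0.09 in WT and by 1.69 ± 0.11 in TKO on the log2 scale (limma, adjusted p = 7.62e-11 and 3.56e-09). Chd9 fell by 0.99 ± 0.13 in WT and 1.05 ± 0.16 in TKO, and Chd8, a gene linked to autism, by 0.61 ± 0.08 and 0.43 ± 0.09. The Chd8 difference in TKO was -0.03 with no call under equal totals. Chd7, the gene of CHARGE syndrome, was called in TKO alone (-0.17 ± 0.08 in WT and -0.40 ± 0.10 in TKO), and the test of the difference between the genotypes was not passed (limma, adjusted p = 0.248). The TKO call of Chd7 was lost under equal totals. Chd2 and Chd6 were called in neither genotype, with log2 differences between -0.12 and 0.15. Under equal totals Chd2 turned to 0.24 in WT, and in TKO Chd2 stood at 0.48 and Chd6 at 0.55, all 3 called higher in NSCs.

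In NuRD, the 3 ATPases, which exclude each other in the complex, diverged. Chd4 (Mi-2 beta, chr6:125095980-125130591) had 40749, 36456 and 35403 reads in WT ESCs and 21439, 21119 and 21868 in WT NSCs, and fell by 0.80 ± 0.06 in WT and 1.03 ± 0.07 in TKO. Chd3 (Mi-2 alpha, chr11:69343273-69369499) had 2446, 2857 and 2485 reads in WT ESCs and 13323, 11741 and 12491 in WT NSCs. In TKO it had 2699 and 2469 reads in ESCs and 23582 and 25063 in NSCs. Its rise was 2.27 ± 0.07 in WT and 3.23 ± 0.09 in TKO (limma, adjusted p = 1.83e-12 and 1.78e-12). Chd3 per read of Chd4 was 0.0600 to 0.0784 in WT ESCs, 0.556 to 0.622 in WT NSCs and 1.03 and 1.14 in TKO NSCs, a rise of 8.38-fold in WT and 19.2-fold in TKO. Chd5, the form of neurons, had 349 to 502 reads in WT ESCs and 240 to 367 in WT NSCs. It was lower in NSCs by the test in TKO (-0.93 ± 0.25; limma, adjusted p = 0.00382) but not in WT (-0.44 ± 0.20; limma, adjusted p = 0.0628, and 0.0402 with the replicate number or 0.0479 with the line as a block). The TKO call was lost under equal totals (-0.54; limma, adjusted p = 0.0699), and the test of the difference between the genotypes was not passed (limma, adjusted p = 0.321).

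The deacetylases exchanged as well. Hdac1 (chr4:129516104-129542646) had 15798, 16970 and 16341 reads in WT ESCs and 8048, 7784 and 7802 in WT NSCs, a fall of 1.05 ± 0.06 in WT and 0.93 ± 0.07 in TKO on the log2 scale. Hdac2 rose by 0.35 ± 0.06 in WT and 0.47 ± 0.07 in TKO, so that Hdac2 had 0.512 to 0.568 reads per read of Hdac1 in WT ESCs and 1.34 to 1.47 in WT NSCs. Hdac3, the deacetylase of the NCoR and SMRT corepressors rather than of NuRD, rose by 0.41 ± 0.06 and 0.63 ± 0.08.

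Of the NuRD scaffolds, Mta3 and Gatad2a fell most. Mta3 (chr17:83706163-83823715) had 7164, 7242 and 6872 reads in WT ESCs and 1510, 1566 and 1394 in WT NSCs, and in TKO 7886 and 6745 against 1633 and 1561, with log2 differences of -2.25 ± 0.08 and -2.19 ± 0.09 (limma, adjusted p = 2.25e-12 and 5.68e-11). Gatad2a (p66 alpha) fell by 1.86 ± 0.06 in WT. In TKO it fell by 1.26 ± 0.07. Mta2 and Gatad2b fell by 0.42 ± 0.06 and 0.46 ± 0.09 in WT and by 0.54 ± 0.07 and 0.58 ± 0.11 in TKO, and none of these 4 values was called under equal totals. Mta1 was the scaffold that rose, by 0.18 ± 0.06 in WT (limma, adjusted p = 0.0111, and 0.0516 without WT ESC replicate 3) and by 0.44 ± 0.07 in TKO.

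The second comparison asked what loss of the TET genes did to the members within a cell type. From here on, values are the deposited normalized counts of a cell type's own table. In ESCs, 10 of 38 members were called, 3 higher (Smarce1, Dpf1, Chd4) and 7 lower (Smarcd1, Smarcc2, Arid1b, Brd7, Hdac3, Mta1, Gatad2a), beside 14.3% of all genes (7.29% higher and 7.02% lower). All calls were under 2-fold, and the median member stood at -0.01 in log2. The count rested on single libraries: it was 6 without WT replicate 1, 4 without WT replicate 2, 4 without WT replicate 3 and 5 without TKO replicate 2. In the same libraries 8 ESC markers summed to between 162954 and 185367 in WT and between 202335 and 228783 in TKO, with 6 of 8 higher, and 6 endoderm and mesoderm markers to between 1274 and 1637 in WT and between 386 and 911 in TKO, with 3 of 6 lower (T, Mixl1 and Foxa2). Their part in the member values was not tested. Over all genes, 2437 were called, and 1609 without WT replicate 2 and 1066 without TKO replicate 2. Mta1 was the member called in each of the 14 alternatives run for this comparison.

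Mta1 (chr12:113098248-113137206), a metastasis-associated scaffold of NuRD, had 8342, 8298 and 7847 normalized reads in WT ESCs and 5960 and 5730 in TKO ESCs. Both TKO libraries lay below every WT library. The difference was -0.48 ± 0.08 in log2 (limma, adjusted p = 8.98e-04). Brd7 had 4810, 4528 and 4355 reads in WT and 3282 and 3501 in TKO, again without overlap, and was lower by the test (-0.43 ± 0.09; limma, adjusted p = 0.00470). Arid1b had 1961, 1593 and 1651 reads in WT and 1196 and 1330 in TKO (-0.45 ± 0.13; limma, adjusted p = 0.0215), and Smarcc2 had 1500, 1365 and 1459 in WT and 993 and 1192 in TKO (-0.40 ± 0.13; limma, adjusted p = 0.0412). Dpf1 had 843, 934 and 960 reads in WT and 1186 and 1289 in TKO, and rose by the test (0.44 ± 0.13; limma, adjusted p = 0.0322). The groups of these members did not overlap. The calls of Arid1b, Smarcc2 and Dpf1 were each lost on leaving out at least 1 of several libraries, and over all alternatives their adjusted p reached 0.145, 0.280 and 0.222.

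Smarcd1 (-0.27 ± 0.08), Hdac3 (-0.34 ± 0.10) and Chd4 (0.29 ± 0.08) completed the ESC calls with Smarce1 (0.28 ± 0.08) and Gatad2a (-0.34 ± 0.08). The calls of Smarcd1, Hdac3 and Chd4 were lost without WT replicate 2, without WT replicate 3 or without TKO replicate 2, and that of Smarce1 without any 1 of those or WT replicate 1. Ss18l1 had the largest difference that did not pass, at 0.52 ± 0.23 (limma, adjusted p = 0.158).

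Several of these members lie where their chromosomal neighbours moved together. For each gene, the median TKO minus WT difference of the 100 nearest tested genes was taken. Around Brd7, Chd9 and Gatad2a on chromosome 8 it was -0.45, -0.46 and -0.49 in TKO ESCs, and both TKO lines showed it (-0.43 and -0.47 around Brd7). Around Chd4 on chromosome 6 it was 0.56, and around Smarce1, Smarcd2 and Chd3 on chromosome 11 it was 0.40, 0.40 and 0.25. On chromosome 11 the 2 TKO lines differed in ESCs, with 0.27 in TKO replicate 1 and 0.56 in TKO replicate 2 around Smarce1. Local centring removes, library by library, the median deviation of these neighbours from the WT mean, so that what is removed can differ slightly from the medians just given. With it, Brd7 stood at 0.03, Gatad2a at 0.16 and Smarce1 at -0.14 with no call, and Chd4 turned to -0.27 with a call (limma, adjusted p = 0.0299). Smarcd1, Smarcc2, Dpf1, Arid1b, Hdac3 and Mta1 kept their calls and directions under local centring, at -0.37, -0.42, 0.44, -0.41, -0.30 and -0.38. The split of ESC calls changed from 3 higher and 7 lower to 1 higher and 7 lower. Over all genes it changed from 1242 higher and 1195 lower of 17033 to 805 and 916 of 15915.

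In NSCs, 12 of 40 members were called, 7 higher (Smarcd2, Smarce1, Arid1a, Chd1, Chd3, Hdac1, Gatad2a) and 5 lower (Smarca2, Smarcd3, Brd7, Chd9, Mta1), beside 37.7% of all genes (18.2% higher and 19.5% lower). No called member reached a 2-fold difference, while 2280 of the 6698 called genes did. The median member stood at 0.01 in log2, as did the median of all genes. Chd1 and Chd3 were called in each of the 14 alternatives run. With local centring, 8 members were higher and 2 lower, beside 2701 higher and 3268 lower of 16391 genes.

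Chd3 had 15606, 13779 and 14657 normalized reads in WT NSCs and 27849 and 29792 in TKO NSCs, so that both TKO libraries exceeded every WT library. Its rise of 0.97 ± 0.07 in log2 was the largest genotype difference on the list (limma, adjusted p = 8.75e-07). The neighbours of Chd3 on chromosome 11 had a median of 0.51 in NSCs, and with local centring the Chd3 difference was 0.45, still called (limma, adjusted p = 3.68e-04). Smarcd2 had 2073, 2161 and 2289 reads in WT and 3763 and 3391 in TKO (0.72 ± 0.08; limma, adjusted p = 4.30e-05), and Smarce1 had 11319, 10963 and 10629 in WT and 17946 and 16368 in TKO (0.64 ± 0.06; limma, adjusted p = 1.22e-05). Neither group overlapped, but the neighbours of both had medians of 0.53 and 0.60, and with local centring the differences were 0.19 and 0.05 with no call. Chd4 was not called as it stood (0.08 ± 0.05). Its neighbours had a median of 0.39, and with local centring it was lower, at -0.35, with a call (limma, adjusted p = 5.24e-04).

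Chd1 had 2687, 2847 and 2959 reads in WT NSCs and 3539 and 3628 in TKO NSCs, a rise of 0.34 ± 0.07 (limma, adjusted p = 0.00386) and of 0.45 with local centring. Arid1a rose by 0.26 ± 0.06, Gatad2a by 0.27 ± 0.07 and Hdac1 by 0.22 ± 0.06, and each of these calls held with local centring. Arid1a and Hdac1 lost theirs without TKO replicate 2, and Gatad2a without TKO replicate 1. Smarcd1, Smarcb1 and Smarca4, by contrast, were not called in NSCs, with differences between -0.11 and 0.05.

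Smarca2 and Smarcd3, which rose most from ESCs to NSCs, were lower in TKO NSCs than in WT NSCs. Smarca2 had 5046, 4741 and 5126 reads in WT NSCs and 4466 and 3357 in TKO NSCs, all below the WT range, and fell by 0.36 ± 0.10 in log2 (limma, adjusted p = 0.0186). The TKO libraries differed between themselves: without TKO replicate 2 the fall was 0.15 and without TKO replicate 1 it was 0.57, and the call was lost without TKO replicate 2, without WT replicate 1, without WT replicate 3 or in 1 fit of all 10 libraries. Smarcd3 had 2599, 2590 and 2810 reads in WT and 2049 and 2138 in TKO, and fell by 0.35 ± 0.08 (limma, adjusted p = 0.00496), or by 0.21 with no call under local centring, and the call was also lost in 1 fit of all 10 libraries (limma, adjusted p = 0.182). In the same libraries the radial glia markers given above were lower. Chd9, Brd7 and Mta1 were lower by 0.34 ± 0.09, 0.23 ± 0.07 and 0.20 ± 0.06, none of them called with local centring. Each also lost its call without at least 1 library, and Chd9 in 1 fit of all 10 libraries. The neuronal forms gave no call in NSCs: Actl6b stood at -0.17 ± 0.33, Ss18l1 at 0.20 ± 0.13, Dpf1 at 0.17 ± 0.11 and Dpf3 at -0.24 ± 0.57. The wide standard errors of Actl6b and Dpf3 go with their low reads.

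**Figure D3:**
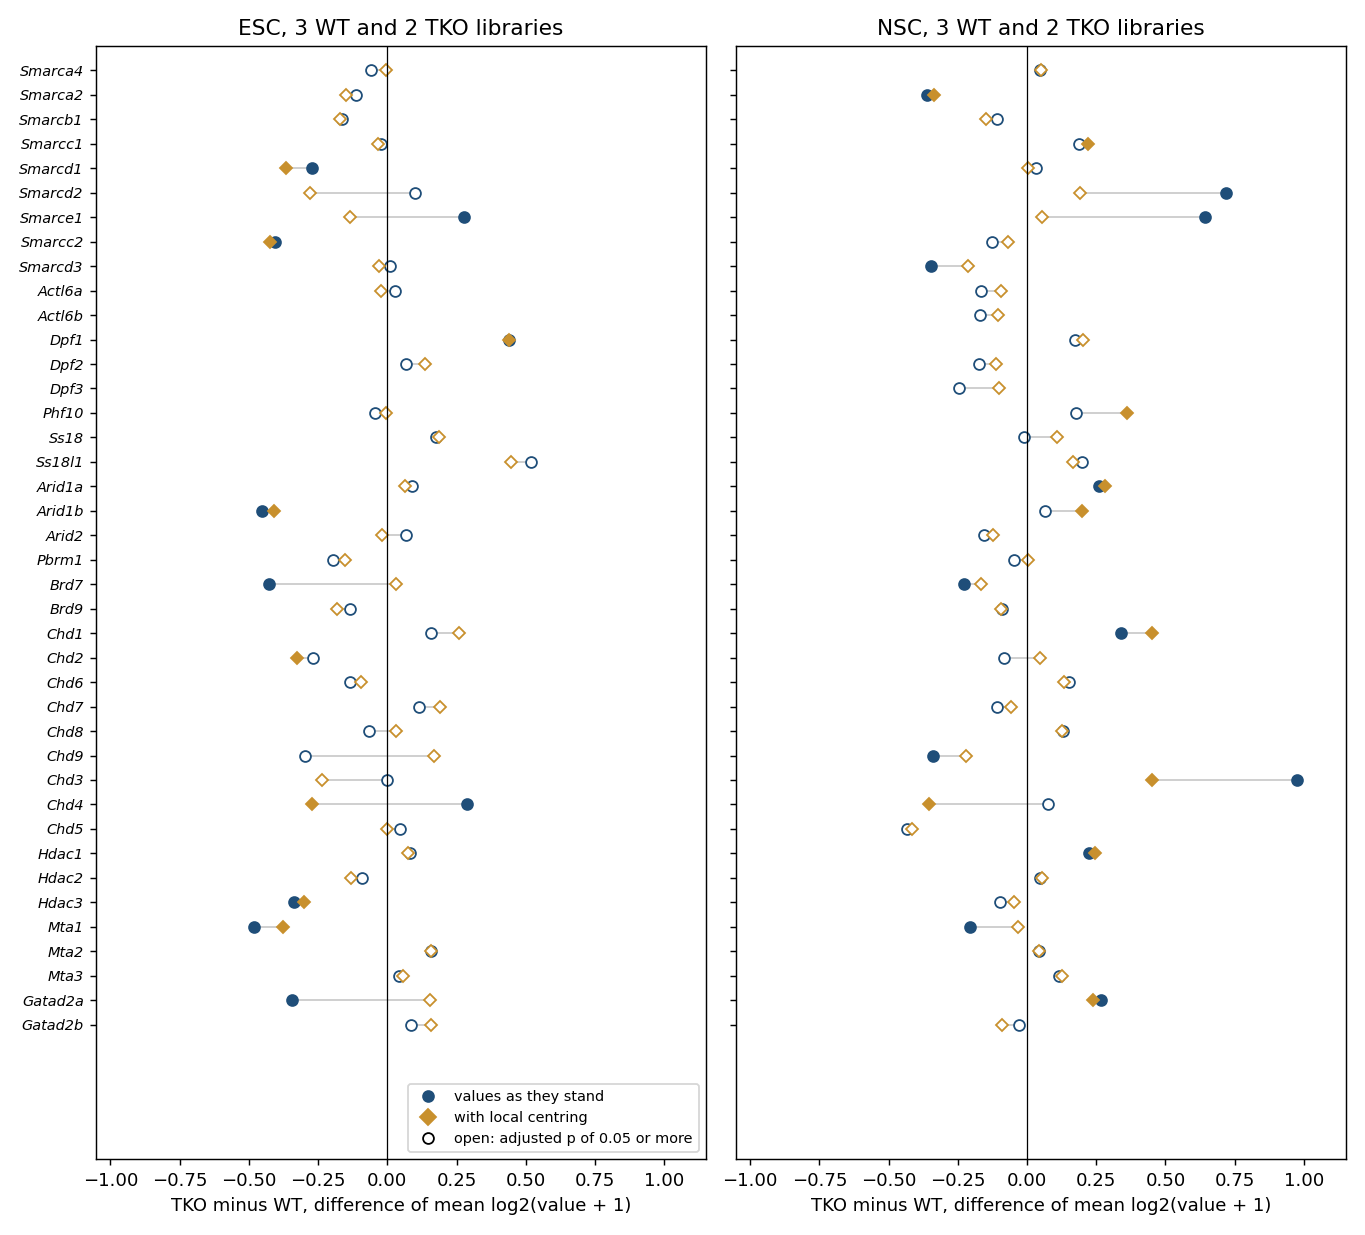
TKO minus WT difference of mean log2(value + 1) for each member in ESCs (left) and NSCs (right), as it stands (blue circles) and with local centring on the 100 nearest genes (yellow diamonds), with open symbols where the adjusted p was 0.05 or more; 3 WT and 2 TKO libraries per panel. The longest grey links, at Brd7, Chd9, Chd4, Gatad2a, Smarcd2, Smarce1 and Chd3, are members on chromosomes 6, 8 and 11.

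Called in both cell types were 4 members, which is 40% of the ESC calls and 33.3% of the NSC calls. Of all genes, 14.3% were called in ESCs and 37.7% in NSCs, and the share called in both was not computed. Smarce1 was higher in both, Brd7 and Mta1 were lower in both, and Gatad2a was lower in ESCs and higher in NSCs. With local centring, Smarce1, Brd7 and Gatad2a lost their ESC calls and Smarce1, Brd7 and Mta1 their NSC calls. None of the 4 was then called in both cell types. The WT and TKO libraries of the 2 cell types are different samples, but the TKO lines carry the same codes. The WT codes recur in both cell types as well.

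The third comparison set the TKO effect in NSCs against that in ESCs. The 2 effects differed for 5 of 38 members, Smarcd2, Smarce1, Arid1b, Chd3 and Gatad2a, beside 20.4% of all genes (10.3% higher and 10% lower), and in all 5 the TKO effect was higher in NSCs. The count was 3 without TKO NSC replicate 1, without which 2063 genes in all were called against 3131, 8 with equal totals, all 8 higher, and 7 without WT ESC replicate 1, 5 higher and 2 lower (Arid2 and Chd4). The difference of effects was 0.96 ± 0.12 for Chd3 (limma, adjusted p = 6.63e-05), 0.60 ± 0.10 for Gatad2a (5.62e-04), 0.61 ± 0.13 for Smarcd2 (0.00389), 0.51 ± 0.14 for Arid1b (0.0197) and 0.36 ± 0.09 for Smarce1 (0.0160), all in log2.

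**Figure D4:**
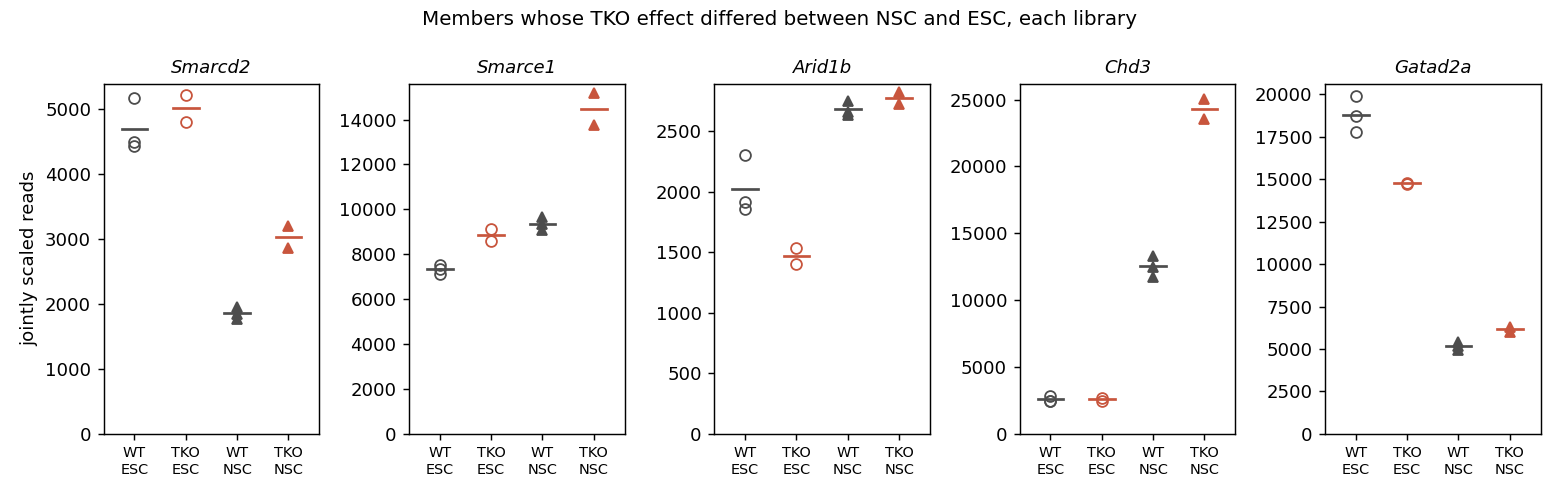
Jointly scaled reads in each library (points) with group means (lines) for the 5 members whose TKO effect differed between cell types, with axes starting at 0; open circles are ESCs, filled triangles NSCs, grey WT and red TKO. Chd3 is alike in the 2 ESC groups and rises to 23582 and 25063 in TKO NSCs, while Gatad2a is lower in TKO ESCs and higher in TKO NSCs.

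For Gatad2a (chr8:69907069-69996402) the jointly scaled reads were 19884, 18735 and 17798 in WT ESCs, 14724 and 14798 in TKO ESCs, 4918, 5393 and 5187 in WT NSCs and 6311 and 5985 in TKO NSCs. The genotypes did not overlap in either cell type and moved oppositely. Its neighbours on chromosome 8 had a median of -0.49 in TKO ESCs and of 0.02 in TKO NSCs. With local centring the difference of effects was 0.09, with no call. Arid1b had 1399 and 1538 reads in TKO ESCs against 1855 to 2300 in WT ESCs, and 2726 and 2822 in TKO NSCs against 2634 to 2750 in WT NSCs, so that the genotypes were apart in ESCs and overlapped in NSCs. The Arid1b call held with local centring (0.64) and was lost without TKO ESC replicate 1 or without either TKO NSC library, with adjusted p of up to 0.0698 (limma).

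Smarcd2 (chr11:106263171-106272998) had 4419, 5156 and 4488 reads in WT ESCs, 4794 and 5211 in TKO ESCs, 1770, 1841 and 1951 in WT NSCs and 3187 and 2853 in TKO NSCs. The genotypes overlapped in ESCs and not in NSCs. Smarce1 (chr11:99209047-99231017) had 7108 to 7518 reads in WT ESCs, 8579 and 9140 in TKO ESCs, 9058 to 9663 in WT NSCs and 15196 and 13770 in TKO NSCs. With local centring the difference of effects was 0.69 for Chd3 and 0.47 for Smarcd2, both called, and 0.19 for Smarce1, not called. The Smarce1 call was also lost without TKO ESC replicate 1 and without TKO NSC replicate 1. Chd3 and Smarcd2 were called in each of the 19 alternatives run for this comparison.

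Ratios of paralogues within a library were also set out by genotype. The reads of Chd3 per read of Chd4 overlapped between the genotypes in ESCs (0.0600 to 0.0784 in WT, 0.0602 and 0.0531 in TKO) and not in NSCs. The reads of Mta1 per read of Mta2 were 0.884 to 1.02 in WT ESCs and 0.602 and 0.612 in TKO ESCs, and 1.41 to 1.44 against 1.25 and 1.16 in NSCs. Gatad2b per Gatad2a was higher in TKO ESCs (0.325 and 0.369 against 0.243 to 0.272) and lower in TKO NSCs (0.578 and 0.534 against 0.675 to 0.689). Of the ratios, 10 of 16 in ESCs and 12 of 19 in NSCs did not overlap between the genotypes. Over all genes the values of 43.4% in ESCs and 59.9% in NSCs did not overlap either, so with 3 against 2 libraries a lack of overlap says little, and these ratios have no test.

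Other remodelling genes, grouped by complex, gave the setting. Of 13 other ATPases of the SNF2 family, 13 were called lower in WT NSCs, led by Hells at -2.59 ± 0.07 and Hltf at -2.09 ± 0.11, with a median of -1.13. Of 18 genes of the INO80, SRCAP and EP400 complexes 11 were lower and 3 higher, led by Srcap (-1.82 ± 0.19) and Ino80 (-1.77 ± 0.08). Of 11 ISWI genes 7 were lower and 3 higher, with Cecr2 at -3.81 ± 0.12 and Baz2a at -2.13 ± 0.07. Of 13 further NuRD subunits and partners 10 were lower and 1 higher, led by Sall4, a pluripotency factor that binds NuRD, at -7.33 ± 0.12, and Sall1 at -1.69 ± 0.11. Of 8 BAF accessory subunits 4 were higher and 2 lower, with the neural factors Bcl11a at 2.43 ± 0.19 and Bcl11b at 2.39 ± 0.27. Of 14 further deacetylases and their corepressors 8 were higher and 4 lower, with Hdac7 at 4.45 ± 0.16 and Hdac9 at 2.80 ± 0.40. These counts stand beside 37.8% of all genes higher and 37.5% lower. In TKO the counts were 11 lower and 0 higher for the SNF2 family, 11 and 3 for INO80, SRCAP and EP400, 7 and 1 for ISWI, 10 and 1 for the further NuRD genes, 2 and 4 for the BAF accessory subunits and 5 and 6 for the deacetylases, beside 34.8% of all genes lower and 35.4% higher. Under equal totals the WT counts became 10 lower and 0 higher for the SNF2 family, 10 and 6 for INO80, SRCAP and EP400, 4 and 4 for ISWI, 7 and 2 for the further NuRD genes, 1 and 6 for the BAF accessory subunits and 3 and 10 for the deacetylases.

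By genotype in NSCs, Sall4 rose by 3.15 ± 0.21 and its TKO effect differed from that in ESCs by 3.16 ± 0.19 (limma, adjusted p = 1.96e-07), in the same libraries in which ESC markers were higher. Bcl11a was higher in TKO in both cell types (1.10 ± 0.29 in ESCs, 1.14 ± 0.10 in NSCs) and Bcl11b lower in both (-1.85 ± 0.45 and -0.60 ± 0.14). Hdac5 was higher in TKO ESCs (0.52 ± 0.10) and lower in TKO NSCs (-0.64 ± 0.07). Bptf, the large subunit of the ISWI complex NURF and like Chd3 a gene of chromosome 11, was higher in both (0.56 ± 0.12 and 0.64 ± 0.06).

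In pcHiC of NSCs, a loop was assigned to a member when its captured fragment held either annotated end of the gene. The WT list held 196 loops at 32 members and the TKO list 189 loops at 30 members, of which 65 joined the same fragments in both. The share of all listed loops found in both was not computed, so the 65 cannot be read as a trait of the members. TKO loops thus made up 49.1% of the loops at members (exact binomial 95% interval 44.0% to 54.2%, for counting error only), beside 49.3% of all listed loops (58145 of 117899). With 1 library per genotype there is no test. The most loops were at Chd4, with 22 in WT and 31 in TKO, then at Smarcd1 with 17 and 16 and Mta2 with 10 and 18. Of the 7 members that rose in TKO NSCs, 4 had more loops in TKO, with 2 in WT and 4 in TKO for Chd3, 10 and 11 for Smarcd2, 0 and 7 for Smarce1 and 10 and 12 for Gatad2a. The other 3 had fewer, with 3 and 0 for Arid1a, 6 and 2 for Chd1 and 6 and 5 for Hdac1. Ss18l1 had 11 loops in WT and 0 in TKO, and Dpf2 12 and 3. Of the 4 genes whose promoters are shown, Smarcc2 had 6 and 7 loops, Smarcc1 2 and 1, Smarca2 2 and 0 and Smarca4 0 and 1. In all, 15 members had more loops in TKO, 17 fewer and 2 as many, and Actl6a, Ss18, Arid1b, Chd6, Chd5 and Mta3 had none in either list.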

How the data were processed

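RNA-seq libraries of WT and TKO ESCs and NSCs were used, 3 WT and 2 TKO per cell type, with 2 pcHiC lists of NSCs. The values the authors deposited for RNA-seq are a signal (counts over DESeq2 size factors) per the labels, with ESC and NSC tables normalized apart by the authors. Per the submitters' processing notes, the tools were STAR 2.7.3a after Trim Galore 0.6.5, then featureCounts, with DESeq2 1.40.2 and mm10. Each library's values were whole multiples of 1 step (100% within 1e-06), so reads were recovered. Between 75.2% and 82.7% of values up to 20 reads were even, as when both mates are counted. No column was left unused (0). Each deposited loop carries the authors' score, at least 5 in both lists; the sources used here do not name the loop caller, and loops may be listed from both ends.

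TKO and WT were compared within a table by limma 3.58.1 (trend, two-sided) on log2(value + 1). Genes whose mean reached 10 were tested, with Benjamini-Hochberg adjusted p under 0.05 over all genes. Cell types and the interaction were tested in 1 fit of all 10 libraries, with recovered reads scaled by the median of ratios, over 15381 genes. Folds on this scale understate the change of low genes. The fits were tested on simulated data. Alternatives were pseudocounts of 0.5 and 5, no filter, equal totals, edgeR 4.0.16 and DESeq2 1.42.0 on recovered reads, a replicate block, local centring (the median deviation of the 100 nearest genes removed in each library), 1 fit for all libraries and leaving out each library. The line as a block and the promoter window for loops were added after the data were seen. Same-numbered TKO libraries of the 2 cell types carry the same line code. Their deviations from the group means correlated at 0.030. With 2 libraries per TKO group these deviations mirror each other, so both lines necessarily give the same value. Over all same-numbered pairs r lay between -0.031 and 0.030.

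Symbols were matched to GRCm38.p6 (mm10): 17657 by symbol, 69 by synonym and 1700 without a match. Coordinates are 1-based. The spans of 7 members overlap another listed gene (Smarcd1, Smarcd3, Phf10, Pbrm1, Brd7, Chd8, Mta2). The members and lists were chosen with earlier results of these data known. All 40 members may be named, with full values for the largest changes per role and for each interaction call; from the other lists the called genes with the 2 largest changes per comparison are named in part. CUT&Tag and bisulfite sequencing samples were left out.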

Additional observations from a re-analysis of the deposited data

Results flagged for a closer look

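By the interaction term of the 10-library limma fit, the effect of TKO was not alike in NSCs and ESCs for 5 members. The TKO effect in NSCs minus that in ESCs, in log2, was 0.96 for Chd3, 0.61 for Smarcd2, 0.60 for Gatad2a, 0.51 for Arid1b and 0.36 for Smarce1. Of all genes tested, 20.4% were called in the same way. In Chd3 and Smarcd2 the genotypes were apart in NSCs alone, in Arid1b in ESCs alone, and in Smarce1 and Gatad2a in both, with opposite directions for Gatad2a. Chd3, Smarcd2 and Smarce1 lie on chromosome 11, where the medians of their neighbours also differed between the genotypes in both cell types. Gatad2a lies on chromosome 8, where the median of its neighbours was -0.49 in ESCs and 0.02 in NSCs. With local centring Chd3, Smarcd2 and Arid1b were still called.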

How the results depend on the processing

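Between the cell types, 24 of the 29 members called in WT and 23 of the 31 called in TKO were called in each of the 19 alternatives run. Some of these could hardly change a call. The filter removed no gene of the joint fit, and leaving out a library of one genotype leaves the other genotype's difference as it was. Local centring works from each cell type's own WT mean and hardly moves the WT difference. The share of all called genes kept in every alternative was not computed for any comparison. Under equal totals, differences changed sign for Smarca4 (0.22), Dpf1 (0.27), Chd2 (0.24), Pbrm1 (0.31) and Brd7 (0.012) in WT, and for Smarca4 (0.39), Dpf1 (0.055), Dpf2 (0.26), Phf10 (0.044) and Brd7 (0.27) in TKO. By genotype, local centring changed the sign of Brd7 (0.032), Chd4 (-0.27), Gatad2a (0.16) and Smarce1 (-0.14) in ESCs and of Chd4 (-0.35) in NSCs. Changes of sign with no call on either side are not counted here. Leaving out 1 library at a time, the ESC calls over all genes ran from 1066 to 2275 and those of members from 4 to 7, and the interaction calls from 2063 to 3279 and from 3 to 7. Equal totals gave 8 members with an interaction call, all higher, beside 1966 higher and 1319 lower over all genes. With the replicate block, 4 members were called in ESCs in place of 10, 13 in NSCs, 30 and 31 between the cell types and 5 in the interaction. Over all genes that block called 1912 in ESCs in place of 2437, 6275 in NSCs, 11477 and 10645 between the cell types and 2877 in the interaction. Within a cell type the samples share only a number. The line as replicate block gave 30, 31 and 5, beside 11459, 10617 and 2908 of all genes. Of the loops at members, 54.8% were TKO loops among those with a score of at least 10 (42 loops in all). The exact binomial 95% interval, for counting error only, was 38.7% to 70.2%. Of all listed loops with such a score, 48.4% were TKO loops (5238 of 10820). With loops assigned by the promoter windows, matched for 30 members, there were 154 WT loops at 21 members and 135 TKO loops at 18. The TKO share was then 46.7% (exact binomial 95% interval 40.8% to 52.6%), beside 49.3% of all listed loops. By this rule 8 members had more loops in TKO and 12 fewer. With 1 library per genotype there is no test. Ratios of deposited values equal those of reads by construction, since reads were recovered with 1 step per library, so this is no check. The low reads of Actl6b, Dpf3 and Chd5 limit what can be said of these members.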
